A study of Arabidopsis thaliana with 9 samples.

Results

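Genes of the WRKY family of Arabidopsis thaliana were followed in whole seedlings of a strigolactone-degrading line, a strigolactone receptor mutant and the wild type. Members were chosen by locus ID, with earlier results of these data known. Their shares against all genes are therefore descriptions and not tests. All 50 listed WRKY loci were found among the 27814 rows of the deposited count table, and all 50 passed the filter on low counts. The list is not the complete family, and other WRKY genes were not analysed here. The AtCXE15-OE plants overexpress AtCXE15, a carboxylesterase that degrades strigolactones. The atd14-1 plants carry a mutation in D14, the strigolactone receptor gene. Col-0 is the wild type set against both. Strigolactones are plant hormones, made from carotenoids, that restrain shoot branching. Each group had 3 libraries from untreated seedlings grown at 22 °C in 16 h of light and 8 h of dark, and their age is given as 8 days in one label and 10 days in another. The labels do not give the promoter of the transgene, the number of transgenic lines or whether replicate libraries stem from different plants. P-values therefore cover only the spread among the 9 libraries, part of which may be technical. No batch or harvest time is given in the sources used here, so a difference in harvest or handling cannot be told apart from genotype.

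WRKY proteins are plant transcription factors named after the invariant amino acids WRKY at the start of their DNA-binding domain, which is closed by a zinc finger. They bind W boxes, short promoter elements with the core TTGAC, and many WRKY genes carry W boxes in their own promoters. The family is divided by the number of domains and the zinc finger type. Group I has a domain at each end of the protein. Group II is split into subgroups IIa to IIe, and group III has a different zinc finger. Many members are induced quickly by microbial molecules, wounding, touch or salicylic acid, and others act in phosphate supply, seed coat and trichome formation, pollen or embryo development and leaf senescence. Of the 50 loci, 10 were of group I, 3 of subgroup IIa, 6 of IIb, 11 of IIc, 6 of IId, 6 of IIe and 8 of group III.

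The coding sequences show this division. DNA encoding the signature WRKYGQK was found, in frame, at 2 places in all 10 genes of group I and at 1 place in every other member except WRKY50, which had 0. The 4 genes below were chosen because they differ in the number and spelling of the signature. WRKY33 has the doubled domain, WRKY40 and WRKY70 are members of subgroup IIa and group III whose levels differed between the groups, and WRKY50 carries a lysine codon in place of the glutamine codon. Sequences are from the RefSeq annotation of TAIR10.1, and the 21 bases of the signature are in capitals between 12 bases on each side.
WRKY33 first domain: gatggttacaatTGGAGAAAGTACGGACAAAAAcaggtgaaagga
WRKY33 second domain: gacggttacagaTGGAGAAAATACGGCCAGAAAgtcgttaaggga
WRKY40: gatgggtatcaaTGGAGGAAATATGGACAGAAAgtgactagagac
WRKY70: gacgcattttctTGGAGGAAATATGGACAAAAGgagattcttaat
WRKY50: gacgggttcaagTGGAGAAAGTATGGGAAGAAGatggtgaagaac

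Library totals ranged from 37724263 to 54421069 counts, and a count of 3 corresponded to 0.0551 to 0.0795 CPM (counts scaled to the library total). The annotation gives AT5G06570 no symbol, and the name CXE15 was paired with this locus from general knowledge. It was higher in AtCXE15-OE (log2 fold change of 7.70), and D14 (AT3G03990) was lower in atd14-1 (log2 fold change of -2.74). All 11 root markers and all 6 green shoot markers were detected. Root markers summed to 144 to 164 CPM in AtCXE15-OE, 159 to 172 CPM in atd14-1 and 146 to 169 CPM in Col-0. In whole seedlings, fewer cells of a type and less RNA per cell cannot be told apart.

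WRKY transcripts were present over a wide range of levels. The levels below are CPM scaled by TMM factors, which adjust for library composition, and are divided by gene length in kb where genes are compared with each other. The highest member in Col-0 was WRKY33, a group I factor needed for camalexin production and resistance to necrotrophic fungi, at 32.7 ± 0.907 CPM per kb in AtCXE15-OE, 32.3 ± 2.47 in atd14-1 and 55.4 ± 2.83 in Col-0 (SD, n = 3). WRKY11, a subgroup IId member known as a negative regulator of basal resistance, came next in Col-0, at 34.3 ± 0.541 CPM per kb in AtCXE15-OE, 36.0 ± 1.94 in atd14-1 and 41.0 ± 2.33 in Col-0. In AtCXE15-OE and in atd14-1, WRKY11 had the higher mean of these 2 genes. WRKY15 (37.0 CPM per kb) and WRKY70 (30.4 CPM per kb) followed in Col-0.

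The lowest members in Col-0 per kb were WRKY55 at 0.435 CPM per kb, WRKY50 at 0.646 and WRKY30 at 0.785. The place of WRKY50 depends on the length of its row, 1875 bases. Of these, 1423 overlap AT5G26160 on the other strand, which had 521 to 898 counts per library against 37 to 62 for WRKY50. Without division by length, the Col-0 mean of WRKY50 lay above those of WRKY12, WRKY30 and WRKY43, while WRKY55 remained lowest. WRKY55 had 24, 26 and 22 counts in the AtCXE15-OE libraries, 21, 18 and 14 in atd14-1, and 8, 16 and 23 in Col-0. Scaled to CPM, the libraries of all 3 groups overlapped. Summed over the 50 members, the level was 862 to 890 CPM in AtCXE15-OE, 890 to 923 CPM in atd14-1 and 949 to 993 CPM in Col-0. WRKY33 supplied 7.36% to 7.86% of the sum in AtCXE15-OE and 6.98% to 7.83% in atd14-1, against 11.4% to 12.1% in Col-0.

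**Figure D1:**
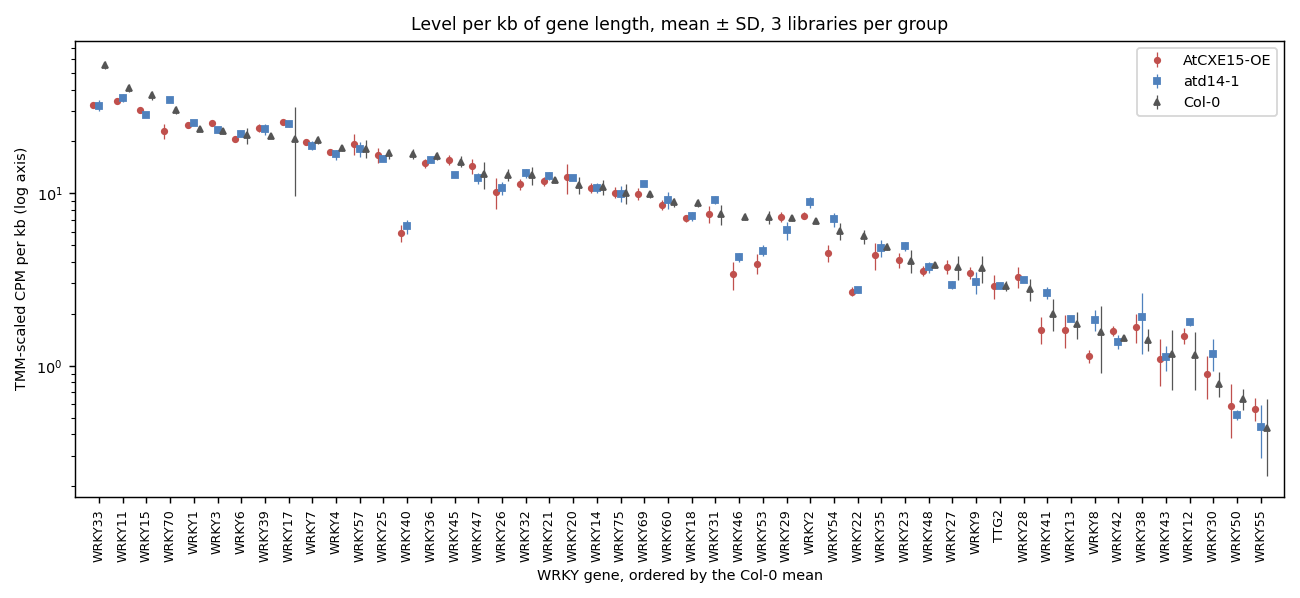
Mean TMM-scaled CPM per kb of gene length (log axis) for the 50 WRKY genes, ordered by their Col-0 mean, with bars for the SD over 3 libraries per group. WRKY33 stands at 32.7 CPM per kb in AtCXE15-OE and 32.3 in atd14-1, against 55.4 in Col-0, and WRKY55 is last at 0.435 in Col-0.

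In AtCXE15-OE, 7 of the 50 WRKY genes were lower than in Col-0 and 0 were higher (edgeR quasi-likelihood test, adjusted p under 0.05 over all 21425 genes tested). The 7 are WRKY40, WRKY46, WRKY22, WRKY53, WRKY33, WRKY70 and WRKY15, known from work on responses to microbes, wounding, senescence or oxidative stress. They make up 14% of the 50 loci, against 1.51% of all tested genes that were lower, 0.761% that were higher and 2.27% that were called in either direction. Since the 50 loci were chosen with earlier results of these data known, this share is a description and not a test. At an unadjusted p under 0.05, 2 members were higher (4%), against 6.19% of all genes tested, and 0 were higher at the adjusted threshold in DESeq2 and limma-voom as well. Over all genes, 163 were higher and 324 lower, and scaling by library totals only gave 220 higher and 274 lower. The median log2 fold change was -0.04 over the 50 members and 0.00 over all genes tested.

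In atd14-1, 6 WRKY genes were lower than in Col-0 and 1 was higher. The lower genes were WRKY40, WRKY22, WRKY46, WRKY33, WRKY53 and WRKY15, all of which were also called lower in AtCXE15-OE, and the higher gene was WRKY2. The 7 called members are 14% of the 50 loci, against 11.9% of all tested genes, a share near the background. By direction, 12% of members were lower against 6.87% of all genes, and 2% were higher against 5.06%. Over all genes, 1084 were higher and 1472 lower, and scaling by library totals only gave 2241 higher and 968 lower, with 3 higher and 6 lower among the members. The 3 Col-0 libraries served both comparisons, and a Col-0 library that stands high or low moves both. The median over members was -0.01, against 0.01 over all genes.

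Genes known to respond quickly to touch or wounding were counted beside the WRKY genes, since several WRKY genes are known to respond to such stimuli. The list was chosen with earlier results of these data known, so its count is a description and not a test. All 8 were lower in both lines, against 1.51% of all genes in AtCXE15-OE and 6.87% in atd14-1, with median log2 fold changes of -0.86 in AtCXE15-OE and -0.71 in atd14-1. Between the lines, 1 of the 8 was higher in atd14-1 than in AtCXE15-OE, the zinc finger gene ZAT10 at 0.28 ± 0.06. SZF1, a zinc finger protein gene, averaged 52.9 ± 3.00 CPM in AtCXE15-OE, 56.8 ± 2.90 in atd14-1 and 138 ± 7.36 CPM in Col-0. The 8 genes summed to 343 to 367 CPM in the AtCXE15-OE libraries and 354 to 390 CPM in those of atd14-1, against 614 to 677 CPM in Col-0. Their part in the WRKY results was not tested. None of the 11 root markers was called by edgeR in the 3 comparisons, where 4 of 33 tests had an unadjusted p under 0.05. DESeq2 called 2 of the 33 and limma-voom 0. Of the 6 green shoot markers, 1 was lower in AtCXE15-OE and 4 were lower in atd14-1 than in Col-0, and 4 were lower in atd14-1 than in AtCXE15-OE. The 6 summed to 11705 to 15667 CPM in AtCXE15-OE, 11100 to 14853 CPM in atd14-1 and 15261 to 16158 CPM in Col-0. These sums include RBCS1A, which varied widely within the lines. It had 4837, 1603 and 4313 CPM in AtCXE15-OE, 7106, 3604 and 4034 in atd14-1, and 4197, 4575 and 4223 in Col-0. The mean of LHCA1 was 3052 CPM in AtCXE15-OE, 2002 in atd14-1 and 3383 in Col-0, while that of GLK1 was 253, 236 and 237 in the same order. The part of the shoot markers in the WRKY results was not tested.

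Subgroup IIa holds WRKY18, WRKY40 and WRKY60, leucine zipper members that can pair with each other and act in microbial defence and abscisic acid responses. WRKY40 (AT1G80840, chr1:30383561-30385499 in TAIR10.1) had the largest fold change of the 50 members in both lines where each table row was tested on its own. Its level was 9.48, 10.7 and 11.9 CPM in the AtCXE15-OE libraries, 12.5, 10.5 and 12 in atd14-1, and 32.9, 29.1 and 29.5 CPM in Col-0. Every library of either line lay well below every Col-0 library. The log2 fold change was -1.51 ± 0.11 (SE, 2.85-fold lower, edgeR adjusted p = 2.74e-06) in AtCXE15-OE and -1.39 ± 0.11 (2.62-fold lower, edgeR adjusted p = 1.66e-06) in atd14-1.

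The partners of WRKY40 did not pass the test. WRKY18 had 9.82, 10.2 and 9.33 CPM in AtCXE15-OE, 9.58, 9.89 and 10.8 in atd14-1, and 11.9, 11.6 and 12.7 CPM in Col-0. Neither line's libraries overlapped those of Col-0, at log2 fold changes of -0.30 ± 0.10 in AtCXE15-OE (edgeR adjusted p = 0.171) and -0.26 ± 0.10 in atd14-1 (edgeR adjusted p = 0.121). WRKY60 had 9.86, 10.1 and 11.1 CPM in AtCXE15-OE, 9.61, 11.5 and 12 in atd14-1, and 9.92, 11.2 and 11 CPM in Col-0, and the libraries of all groups overlapped. The difference between these genes' fold changes was not tested.

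WRKY33 (AT2G38470, chr2:16108235-16110766), the group I member with the highest level in Col-0, is phosphorylated by the mitogen-activated kinases MPK3 and MPK6 after infection. It had 67.8, 69.2 and 65.5 CPM in AtCXE15-OE, 72.2, 62.1 and 66.1 in atd14-1, and 120, 116 and 108 CPM in Col-0. The lines overlapped each other and neither overlapped Col-0. Its log2 fold change was -0.76 ± 0.06 in AtCXE15-OE (edgeR adjusted p = 1.12e-05) and -0.78 ± 0.06 in atd14-1 (edgeR adjusted p = 2.18e-06).

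The other 9 group I genes were not called lower in either line. WRKY25 and WRKY26 act with WRKY33 in heat tolerance. The log2 fold change of WRKY25 was -0.03 in AtCXE15-OE and -0.10 in atd14-1, that of WRKY26 was -0.32 in AtCXE15-OE and -0.25 in atd14-1, and none was called. WRKY2 (AT5G56270, chr5:22779614-22783426), which sets the polarity of the zygote by activating the homeobox gene WOX8, was the member that rose in atd14-1. It had 21.8, 19.8 and 20.8 CPM in AtCXE15-OE, 26.8, 23.3 and 24.7 in atd14-1, and 19.3, 20.3 and 18.7 CPM in Col-0. The atd14-1 libraries lay above those of both other groups, with a log2 fold change against Col-0 of 0.36 ± 0.08 (edgeR adjusted p = 0.00829). Without atd14-1 replicate 1 this call was lost (adjusted p = 0.0525 in edgeR). TTG2, also named WRKY44 and required for trichome and seed coat development, had a mean of 5.27 CPM in AtCXE15-OE and 5.28 CPM in both atd14-1 and Col-0.

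Subgroup IIe includes WRKY22 and WRKY29, which were placed downstream of the flagellin receptor and its kinase cascade. WRKY22 (AT4G01250, chr4:522530-524249) had 4.14, 4.22 and 4.63 CPM in AtCXE15-OE, 4.62, 4.37 and 4.32 in atd14-1, and 8.34, 10.0 and 8.83 CPM in Col-0. All 6 libraries of the lines lay below the lowest Col-0 library. The log2 fold change was -1.06 ± 0.13 (edgeR adjusted p = 0.000477) in AtCXE15-OE and -1.03 ± 0.13 (edgeR adjusted p = 0.000117) in atd14-1. WRKY29, its closest partner in that cascade, was not called: the log2 fold change was 0.01 ± 0.12 in AtCXE15-OE and -0.25 ± 0.12 in atd14-1. The other 4 members of the subgroup were not called in either line.

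Subgroup IId members bind calmodulin, a calcium sensor. WRKY15 (AT2G23320, chr2:9924886-9926372), which responds to reactive oxygen and affects leaf growth and salt tolerance, had 37.4, 37.0 and 38.5 CPM in AtCXE15-OE, 35.9, 35.8 and 34.1 in atd14-1, and 48.9, 45.0 and 43.3 CPM in Col-0. The groups did not overlap. The log2 fold change was -0.28 ± 0.06 in AtCXE15-OE (edgeR adjusted p = 0.0315) and -0.38 ± 0.06 in atd14-1 (edgeR adjusted p = 0.00126). In AtCXE15-OE the call did not hold in 6 of the 9 fits without 1 library, with adjusted p up to 0.155 in edgeR.

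WRKY11 (AT4G31550) lay just outside the threshold, at 44, 43.4 and 42.6 CPM in AtCXE15-OE, 47.9, 43 and 45.5 in atd14-1, and 49, 54.9 and 51.5 CPM in Col-0. Neither line overlapped Col-0, at log2 fold changes of -0.26 ± 0.06 (edgeR adjusted p = 0.0525) in AtCXE15-OE and -0.19 ± 0.06 (edgeR adjusted p = 0.0743) in atd14-1. DESeq2 called it lower in AtCXE15-OE (adjusted p = 0.00966) and in atd14-1 (adjusted p = 0.0464), and edgeR with RLE size factors called it in AtCXE15-OE (adjusted p = 0.0477). WRKY17 (AT2G24570), the closest relative of WRKY11, had 1 library apart from the rest. Its counts were 1532, 1969 and 1832 in AtCXE15-OE, 1353, 1931 and 1729 in atd14-1, and 1616, 437 and 1597 in Col-0. The low value, 11.2 CPM in Col-0 replicate 2, stands against 38.2 and 38 CPM in the other Col-0 libraries. A value more than 2-fold below the lowest of the other 8 libraries, where all of those exceed 5 CPM, was found for 15 of 15160 such genes in that library, and for 7 to 16 genes in each of the 9 libraries. With it in the fit, the SE of WRKY17 was 0.43 and no comparison of this gene was called.

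Group III members are linked to salicylic acid signalling and leaf senescence. WRKY46 (AT2G46400, chr2:19043411-19044955) and WRKY53 (AT4G23810, chr4:12392370-12393982), which act with WRKY70 in basal resistance, and of which WRKY53 promotes senescence, were lower in both. WRKY46 had 3.59, 5.02 and 3.83 CPM in AtCXE15-OE, 4.93, 5.11 and 5.55 in atd14-1, and 9.43, 8.65 and 8.73 CPM in Col-0. The lines overlapped each other and neither overlapped Col-0. Its log2 fold change was -1.11 ± 0.15 (edgeR adjusted p = 0.000958) in AtCXE15-OE and -0.78 ± 0.14 (edgeR adjusted p = 0.00249) in atd14-1. WRKY53 had 5.04, 6.57 and 6.15 CPM in AtCXE15-OE, 7.05, 6.57 and 7.55 in atd14-1, and 12, 10.9 and 10.1 CPM in Col-0. Neither line overlapped Col-0, with log2 fold changes of -0.89 ± 0.13 (edgeR adjusted p = 0.00166) in AtCXE15-OE and -0.64 ± 0.13 (edgeR adjusted p = 0.00425) in atd14-1.

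The WRKY53 row has a limit of its own. In the table it overlaps AT4G23800 on the other strand by 341 bases, and that neighbour had 2847 to 4616 counts per library against 208 to 507 for WRKY53. The library procedure in the labels does not mark strand, so reads in the overlap cannot be told apart. With both loci summed, the log2 fold change was 0.01 in AtCXE15-OE and 0.07 in atd14-1, not called in either. WRKY40 overlaps a neighbour by 51 bases and WRKY33 overlaps one by 26 bases, and both were still called when summed with it. Summed, WRKY40 had -0.99 in AtCXE15-OE and -0.97 in atd14-1, and WRKY33 had -0.71 in AtCXE15-OE and -0.75 in atd14-1. WRKY22, WRKY46, WRKY54 and WRKY70 overlap only table rows that span over 100 kb, while WRKY15 and WRKY2 overlap none. When every overlapping row was summed, WRKY22 became part of a sum over 134 loci, whose log2 fold change was 0.00035 in AtCXE15-OE.

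WRKY70 (AT3G56400, chr3:20908711-20910623) and WRKY54 (AT2G40750, chr2:17000419-17002528), related group III factors that restrain senescence and balance salicylic and jasmonic acid responses, differed between the lines. WRKY70 had 45.3, 44.4 and 45.9 CPM in atd14-1 and 26.6, 30.8 and 32.2 CPM in AtCXE15-OE, with 40.9, 37.0 and 40.2 CPM in Col-0. The groups did not overlap: all atd14-1 libraries were highest and all AtCXE15-OE libraries lowest. Against Col-0, the log2 fold change was -0.40 ± 0.07 (edgeR adjusted p = 0.0107) in AtCXE15-OE and 0.20 ± 0.07 (edgeR adjusted p = 0.110, or 0.0316 with scaling by library totals only) in atd14-1. The AtCXE15-OE call was lost without Col-0 replicate 1 (adjusted p = 0.0579 in edgeR).

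Between the lines, WRKY70 was higher in atd14-1 than in AtCXE15-OE, at 0.60 ± 0.07 on the log2 scale (edgeR adjusted p = 0.000393). WRKY54 had 9.33, 10.4 and 8.61 CPM in atd14-1 and 5.99, 6.75 and 5.39 CPM in AtCXE15-OE, with 9, 8.18 and 7.12 CPM in Col-0. Its libraries in the lines did not overlap, and the log2 fold change of atd14-1 over AtCXE15-OE was 0.64 ± 0.13 (edgeR adjusted p = 0.00997). Against Col-0, neither line passed the test for WRKY54, at -0.42 ± 0.13 in AtCXE15-OE and 0.22 ± 0.13 in atd14-1. The WRKY54 difference was not called without AtCXE15-OE replicate 3 (edgeR adjusted p = 0.0564) or without atd14-1 replicate 2 (edgeR adjusted p = 0.0577).

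These were the 2 members called in the direct comparison, which is 4% of the 50 loci, against 6.94% of all tested genes. Both were higher in atd14-1, as were 2.82% of all genes, and 0 members were lower, against 4.12%. At an unadjusted p under 0.05, 3 members were lower (6%), against 10.9% of all genes, and DESeq2 and limma-voom also called 0 lower. In edgeR, 1 member was lower without AtCXE15-OE replicate 1 (WRKY45), and 1 in each of the fits with overlapping loci summed. Where only loci of up to 100 kb were summed, this was the row that joins WRKY21 with its neighbour AT2G30600. Of the 6 green shoot markers, 4 were lower in this comparison too, with LHCA1, a light-harvesting gene, at -0.61 ± 0.07, and their part in the WRKY70 and WRKY54 values was not tested. Over all genes, 604 were higher and 882 lower, and scaling by library totals only gave 1060 higher and 551 lower. In group III, 7 of 8 genes had a log2 fold change of atd14-1 over AtCXE15-OE above 0, as did 29 of all 50 members (58%) and 50.6% of all genes tested. The group III median was 0.36, against 0.04 over all members and 0.00 over all genes. Group III is singled out here because both called members belong to it, and the group was not tested. Of the others, WRKY41 had 0.71 ± 0.22 (edgeR adjusted p = 0.0669), WRKY46 had 0.33 ± 0.15 (edgeR adjusted p = 0.225) and WRKY55 had -0.36 ± 0.48 (edgeR adjusted p = 0.749). WRKY41, with 77 to 176 counts, overlaps AT4G11080 by 74 bases on the other strand. That neighbour had 515 to 820 counts, and the sum of both had a log2 fold change of 0.083.

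**Figure D2:**
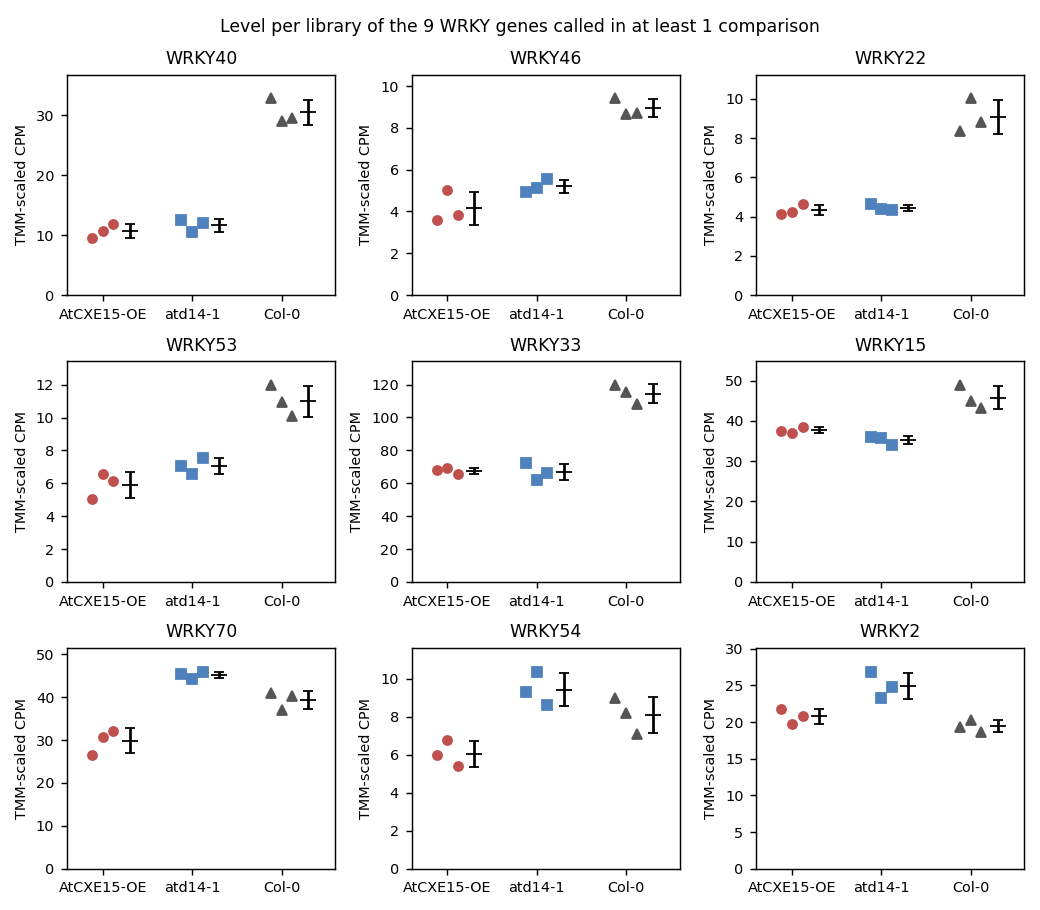
TMM-scaled CPM per library (points) with mean and SD over 3 libraries for the 9 WRKY genes called in at least 1 comparison, each panel with its own vertical axis from 0. WRKY40 lies at 9.48 to 11.9 CPM in AtCXE15-OE, 10.5 to 12.5 in atd14-1 and 29.1 to 32.9 in Col-0, while WRKY70 is lowest in AtCXE15-OE and highest in atd14-1.

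None of the 6 members of subgroup IIb and none of the 11 of subgroup IIc was called by edgeR in the 3 comparisons, where 7 of their 51 tests had an unadjusted p under 0.05. DESeq2 and limma-voom also called 0, while edgeR without AtCXE15-OE replicate 1 called WRKY45 lower in atd14-1 than in AtCXE15-OE. Over all genes tested, edgeR called 2.27% in AtCXE15-OE and 11.9% in atd14-1 against Col-0, and 6.94% between the lines. Whether these subgroups differ from all genes was not tested. In IIb, log2 fold changes against Col-0 ranged from -0.14 to 0.16 in AtCXE15-OE and from -0.26 to 0.27 in atd14-1. In IIc, they ranged from -0.46 to 0.38 in AtCXE15-OE and from -0.32 to 0.64 in atd14-1. Subgroup IIb holds WRKY6 and WRKY42, known as repressors of the phosphate exporter gene PHO1. Subgroup IIc holds WRKY75 and WRKY45, known for phosphate acquisition, and WRKY57 of drought responses. The highest of these IIc values in both lines was that of WRKY12, which had 27 to 88 counts per library and averaged 1.30 CPM in AtCXE15-OE, 1.56 in atd14-1 and 0.999 CPM in Col-0. Of the 50 listed members, 9 (18%) were called in at least 1 comparison and 41 in none, while 14.2% of all tested genes were called in at least 1.

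**Figure D3:**
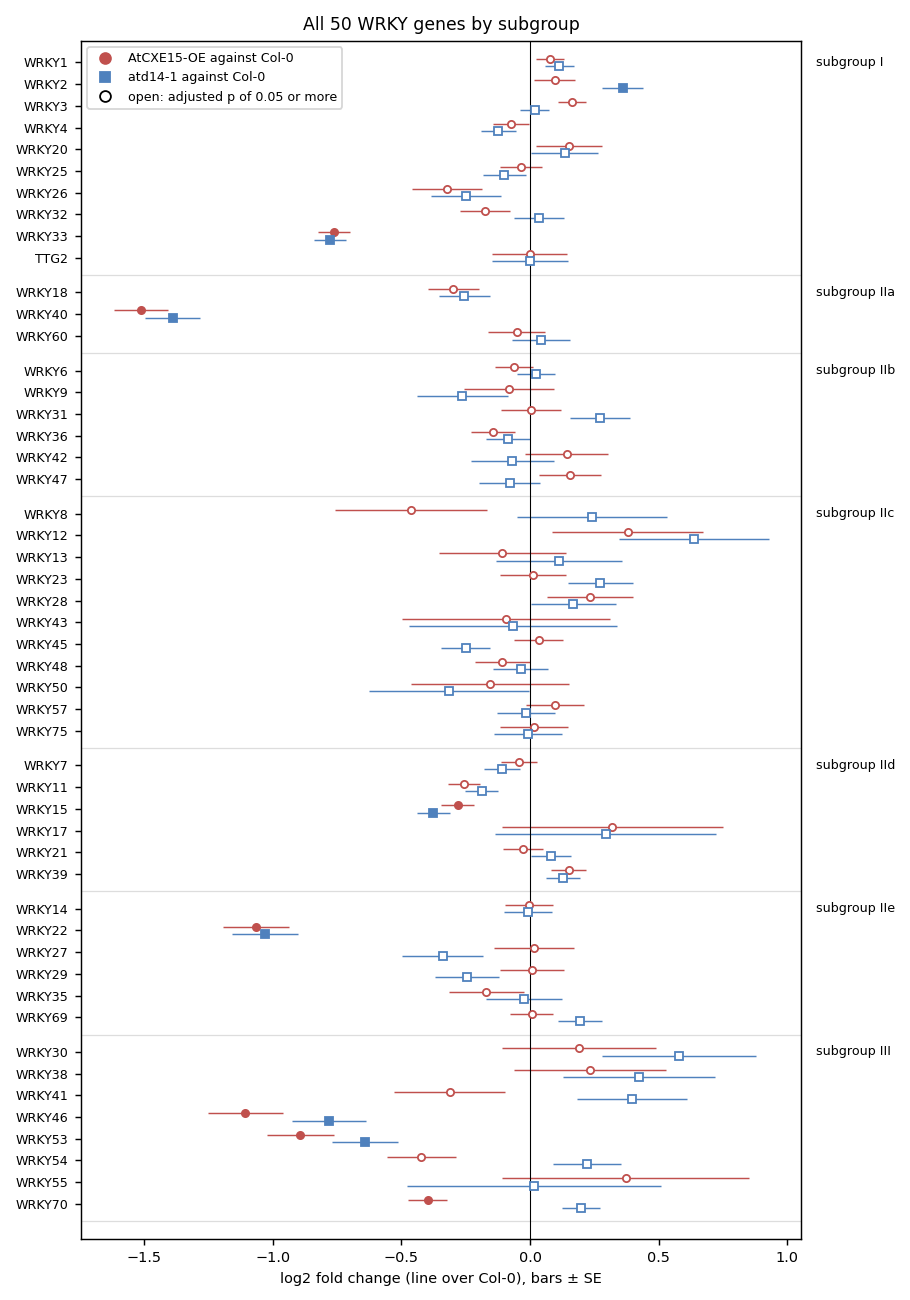
Log2 fold change of AtCXE15-OE (circles) and atd14-1 (squares) over Col-0 for all 50 WRKY genes by subgroup, with bars for the SE and filled symbols for an edgeR adjusted p under 0.05. The filled symbols on the left are WRKY40 (-1.51 in AtCXE15-OE and -1.39 in atd14-1), WRKY22, WRKY46, WRKY53, WRKY33, WRKY15 and, in AtCXE15-OE, WRKY70, and the filled symbol on the right is WRKY2 at 0.36 in atd14-1.

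Counted by overlap of libraries rather than by the test, 11 members (22%) lay wholly below Col-0 in AtCXE15-OE, against 8.93% of all genes, and 2 (4%) wholly above it, against 8.93%. In atd14-1, 12 members (24%) lay wholly below Col-0, against 15.8% of all genes, and 6 (12%) wholly above it, against 15.7%. Between the lines, 12 members (24%) were wholly higher in atd14-1 than in AtCXE15-OE, against 12.3% of all genes, and 5 (10%) wholly lower, against 13.7%.

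Upstream of WRKY factors stand receptors, kinases and VQ proteins, and 15 such genes were counted by the same test. They too were chosen with earlier results of these data known, so their counts are descriptions. In AtCXE15-OE, 1 was called, against 2.27% of all genes tested. This was MKK9, a kinase kinase of ethylene and camalexin responses, lower at -0.46 ± 0.08. In atd14-1, MKK9 (-0.29 ± 0.08) and MKS1 (-0.48 ± 0.11), a VQ protein that binds WRKY33, were lower, and the flagellin receptor FLS2 (0.32 ± 0.08) was higher. These 3 of 15 stand against 11.9% of all genes tested, and the other 12 passed in neither direction in atd14-1. FLS2 was also higher in atd14-1 than in AtCXE15-OE, at 0.32 ± 0.08.

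Of 19 known or proposed target genes, 17 passed the filter. These were also chosen with earlier results of these data known, and their counts are descriptions. RRTF1, a redox-responsive AP2 factor induced by stress, was lower in both lines, at a mean of 1.55 ± 0.383 CPM in AtCXE15-OE, 1.84 ± 0.642 in atd14-1 and 5.13 ± 0.0653 CPM in Col-0 (SD, n = 3). Its log2 fold change was -1.72 ± 0.25 in AtCXE15-OE, where it was the 1 target called, and -1.47 ± 0.25 in atd14-1. In atd14-1 the phosphate exporter gene PHO1 (0.35 ± 0.06) and ABI5, a bZIP factor of abscisic acid responses (0.72 ± 0.20), were higher. PHO1 also was higher in atd14-1 than in AtCXE15-OE, at 0.33 ± 0.06. The remaining 14 tested targets were not called in atd14-1, so 1 of 17 was called in AtCXE15-OE (2.27% of all genes) and 3 of 17 in atd14-1 (11.9% of all genes).

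The windows before the annotated starts were searched for W boxes, spelled TTGACC or TTGACT, on both strands of the 250 bases. Of the 50 members, 19 (38%) held at least 1, and 9 (18%) held 2 or more. Among all 27443 protein-coding genes, 28.4% held at least 1 and 6.18% held 2 or more. No matches overlapped each other. Of the 7 members lower in a line, WRKY15, WRKY33 and WRKY53 held 2 each, and WRKY40, WRKY46, WRKY22 and WRKY70 held 0 in these spellings. Among the 41 members called in no comparison, 39% held at least 1 and 14.6% held 2 or more. The difference between these sets was not tested.

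The windows of these 3 genes are shown because they hold the matches. That of WRKY40 is shown because the member with the largest fold change has neither TTGACC nor TTGACT in this window. It does hold the core TTGAC on the opposite strand, as gtcaa, outside the spellings searched, and so do the windows of WRKY46 and WRKY70. The core alone was not counted, over the members or over all genes. W boxes are in capitals, as TTGACC or TTGACT, or as GGTCAA or AGTCAA where the match is on the opposite strand. Coordinates are of TAIR10.1, with the sequence written in the direction of the gene.
WRKY33 (chr2:16107985-16108234, plus strand): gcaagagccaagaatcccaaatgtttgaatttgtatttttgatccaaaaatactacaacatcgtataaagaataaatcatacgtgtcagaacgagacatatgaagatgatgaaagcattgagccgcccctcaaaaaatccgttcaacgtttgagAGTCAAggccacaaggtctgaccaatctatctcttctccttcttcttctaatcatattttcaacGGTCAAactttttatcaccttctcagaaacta
WRKY53 (chr4:12393983-12394232, minus strand): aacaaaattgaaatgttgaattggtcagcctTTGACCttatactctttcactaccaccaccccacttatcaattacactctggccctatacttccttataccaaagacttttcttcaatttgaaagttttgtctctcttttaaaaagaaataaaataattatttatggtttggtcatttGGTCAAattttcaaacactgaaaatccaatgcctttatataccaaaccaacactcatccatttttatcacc
WRKY15 (chr2:9924636-9924885, plus strand): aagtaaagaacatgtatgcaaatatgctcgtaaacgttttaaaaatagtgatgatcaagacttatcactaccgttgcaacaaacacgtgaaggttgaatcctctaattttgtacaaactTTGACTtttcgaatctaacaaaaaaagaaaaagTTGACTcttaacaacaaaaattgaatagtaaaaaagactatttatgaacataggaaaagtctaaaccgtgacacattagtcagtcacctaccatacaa
WRKY40 (chr1:30383311-30383560, plus strand): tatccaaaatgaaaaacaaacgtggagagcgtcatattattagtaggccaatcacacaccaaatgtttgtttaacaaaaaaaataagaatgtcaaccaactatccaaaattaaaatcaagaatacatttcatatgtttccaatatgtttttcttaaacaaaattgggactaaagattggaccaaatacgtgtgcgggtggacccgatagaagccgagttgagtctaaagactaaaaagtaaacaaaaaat
In WRKY33 both matches were on the opposite strand, with first bases at -96 and -32 relative to the start. In WRKY15 both were on the gene's strand, at -131 and -98. In WRKY53, 1 was on each strand, at -219 and -71. A match is a sequence of letters and not a bound site.

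**Figure D4:**
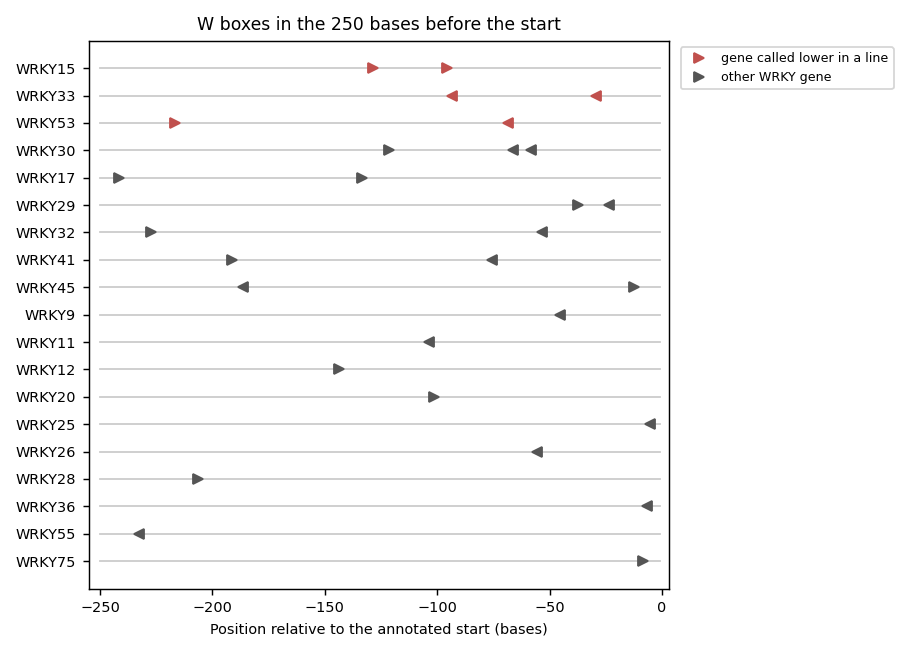
Position of each W box (TTGACC or TTGACT) in the 250 bases before the annotated start, in bases relative to the start, for the 19 WRKY genes that hold at least 1, with the direction of each marker giving the strand. Genes called lower in a line (WRKY15, WRKY33 and WRKY53) are in red and hold 2 each.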

How the data were processed

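RNA-seq of polyadenylated RNA from 9 seedling libraries was analysed. The authors deposited raw counts per gene, not normalized, in 1 table. The submitters' processing notes list DESeq 1.39.0, SAMtools 0.1.18, Picard and HISAT2, with TAIR10 as the genome. The counting program was not given in the sources used here, nor were its strand option and its treatment of multi-mapped reads. In the table, 36 members overlap another row, 27 of them only rows over 100 kb.

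The test was that of edgeR 4.0.16, under R 4.3.3 (quasi-likelihood, robust, TMM, group-aware filter, 1 fit of all 9 libraries, Benjamini-Hochberg over 21425 genes, threshold 0.05). SE is the absolute log2 fold change over the square root of F, and is approximate. The procedure was tested on simulated data, in 5 draws with 200 genes changed in each. It recovered 41.8% of 1.5-fold changes in AtCXE15-OE and 43.6% in atd14-1. For 2-fold changes it recovered 76.4% in AtCXE15-OE and 75.5% in atd14-1, and for 4-fold changes 90.9% and 89.7%. Of its calls, 7.32% in AtCXE15-OE and 7.33% in atd14-1 were of genes not changed in the simulation. A gene that was not called may therefore still differ. Each draw changed fewer genes than the 2556 called in atd14-1, and the rates with so many changed genes were not tested. Alternatives were DESeq2 1.42.0, limma-voom 3.58.1, other scalings and filters, only the 6 libraries compared, a replicate block, summed overlapping loci and leaving out each library. Replicates correlated at 0.973 to 0.978 in log2 CPM and none were duplicates (lowest chi-square per df 24.9). The floor of 3 counts covers counting error only. Rows without a locus ID held 0.198% to 0.254% of counts.

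The members and lists were chosen with earlier results of these data known, and values in every library are given for called members, subgroup IIa and members that stand apart in their subgroup. Promoter and coding sequences come from the RefSeq annotation of TAIR10.1, whose chromosome lengths contain the table's coordinates.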

Additional observations from a re-analysis of the deposited data

Results flagged for a closer look

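WRKY70 and WRKY54 differed between the lines when the lines were tested against each other, with log2 fold changes of atd14-1 over AtCXE15-OE of 0.60 (edgeR adjusted p = 0.000393) and 0.64 (edgeR adjusted p = 0.00997). All 3 atd14-1 libraries lay above all 3 AtCXE15-OE libraries for both genes. These 2 genes are 4% of the members, against 6.94% of all tested genes called in this comparison. WRKY54 was not called without AtCXE15-OE replicate 3 or without atd14-1 replicate 2 (edgeR adjusted p up to 0.0577). The Col-0 libraries enter this comparison through the scaling, the filter on low counts and the estimate of the spread. WRKY70 and WRKY54 overlap only table rows of over 100 kb.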

How the results depend on the processing

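Outside the 2 sums of overlapping loci, WRKY40, WRKY46, WRKY22, WRKY53 and WRKY33 stayed called lower in both lines under all 17 alternatives, as did WRKY15 in atd14-1 and the WRKY70 difference between the lines. WRKY15 in AtCXE15-OE was called under 9 of the 17, WRKY70 in AtCXE15-OE under 16, WRKY2 in atd14-1 under 16 and WRKY54 between the lines under 15. DESeq2 called 840 genes in AtCXE15-OE and 4 members between the lines, where scaling by library totals only also called 4. Summing all overlapping loci joined the table into 9976 rows, with WRKY loci in sums of up to 2142 loci. Of the 7293 summed rows tested, 203 were called in AtCXE15-OE, 944 in atd14-1 and 588 between the lines. The called rows held 2 members in AtCXE15-OE and 16 in atd14-1. Members in the same sum share 1 row and were each counted, so these are not separate results for single WRKY genes. The summed rows gave log2 fold changes of 0.00035 for WRKY22 in AtCXE15-OE, -0.19 for WRKY54 and -0.11 for WRKY70 in atd14-1 against Col-0, and -0.095 for WRKY54 and -0.084 for WRKY70 in atd14-1 against AtCXE15-OE. These are values of the summed rows. Summing only loci of up to 100 kb, an alternative chosen after seeing the data, gave 0.014 for WRKY53 in AtCXE15-OE and 0.065 in atd14-1, and called 4 members between the lines. Of these, 1 was WRKY21, whose row overlaps AT2G30600 on the same strand over all its 2118 bases. That neighbour had 2017 to 4941 counts against 820 to 1219 for WRKY21. Their summed row had -0.40 between the lines, against 0.11 for the WRKY21 row alone, so this call is not a separate result for WRKY21. Without 1 library at a time, calls ranged from 287 to 586 genes and 5 to 7 members in AtCXE15-OE, from 1704 to 3118 genes and 6 to 8 members in atd14-1, and from 769 to 2216 genes and 1 to 5 members between the lines. In AtCXE15-OE, 287 genes were called without its replicate 3 and 306 and 313 without Col-0 replicates 1 and 2. Between the lines, leaving out any atd14-1 library gave 769 to 913 genes, and leaving out AtCXE15-OE replicate 2 or 3 gave 837 or 776. The 5 members called there were without AtCXE15-OE replicate 1, and 1 was called without AtCXE15-OE replicate 3 or atd14-1 replicate 2. Over all genes tested, same-numbered libraries did not deviate together (correlations of -0.05 to 0.04 over 9 pairs). A shared batch that moves only part of the genes was not tested. The fit with a replicate block called 7, 7 and 2 members and 461, 2576 and 1561 genes. The causes of these changes were not tested. Precision is limited by 3 libraries per group, and for WRKY55 and WRKY50 by counts of 8 to 62.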
